A study of Mus musculus with 6 samples.

Results

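The genes described here encode the T cell receptor complex and its coreceptors: Cd3e, Cd3d, Cd3g, Cd247, Trac, Trbc2, Cd4, Cd8a and Cd8b1, with the transcription factor gene Lef1. All 10 listed genes were found among the 19848 genes of the RNA table. They were listed by name, with no threshold on a measured value. The data are CITE-seq profiles of immune cells enriched from whole brains, in which RNA and antibody-bound DNA tags are read from the same single cells. The mice were female C57BL/6, either 12 weeks (young) or 72 weeks (aged) old, and each age had a control group given vehicle, with an intact gut microbiota, and a group depleted of gut microbiota by antibiotics. The 24 brains (6 per group) were combined into 12 pools, 3 per group, so each pool mixes mice and is the replicate here. All young pools were loaded into 1 droplet well and all aged pools into a different one, so age and well cannot be told apart. The same holds for arm and hashtag, the tag that marks the pool, because control pools carried hashtags 1 to 3 and antibiotic pools 4 to 6 at both ages.

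The T cell receptor recognises a peptide held by an MHC molecule but cannot signal alone. Its alpha and beta chains, whose constant regions come from Trac and from Trbc1 or Trbc2, sit in the membrane with the CD3 gamma, delta and epsilon chains (Cd3g, Cd3d, Cd3e) and a CD247 (zeta) homodimer, whose cytoplasmic motifs are phosphorylated on recognition. CD4 binds MHC class II, CD8 (a dimer of the products of Cd8a and Cd8b1) binds MHC class I, and both bring the kinase LCK to the receptor. LEF1, a partner of TCF1, acts in T cell development and is high in naive T cells. In the healthy brain T cells are few and lie mostly at its borders.

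The table held 13052 cells, 3263 in each group and 760 to 1590 per pool, in 10 classes named by the authors. A pool held between 5.75e+06 and 1.37e+07 raw UMIs (counted RNA molecules). Median raw UMIs per cell were 6931 in the young well and 7042 in the aged well, whereas median antibody tags per cell were 1348 and 209, so raw tag numbers are compared within a well only. RNA values are the authors' corrected UMI values of SCTransform, written below as corrected values. A total of 59 cell barcodes occurred in both wells. Intervals of shares are exact 95% binomial intervals and cover counting error only, since cells of 1 pool are not replicates.

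Surface protein was read through DNA barcodes on antibodies to 3 of the encoded proteins. They are printed whole in lower case, because the CD3 barcode marks the border between the T cell and innate lymphoid classes and the other 2 tell the T cell classes apart.
CD3: gtatgtccgctcgat
CD4: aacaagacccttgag
CD8a: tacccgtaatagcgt

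The 3 CD3 genes are neighbours on chromosome 9. In RefSeq's annotation of GRCm38.p6, the patched form of the mm10 build, Cd3g spans chr9:44969572-44980431, Cd3d chr9:44981769-44987052 and Cd3e chr9:44998735-45009663. Cd3g and Cd3d are transcribed away from each other. The 250 bases upstream of 1 annotated transcript start of each gene are shown because Cd3d RNA occurred without that of its neighbours in the class Ly6C+Ly6G+. Capitals mark the letters CTTTG, the core recognised by the TCF and LEF family, and AGGAAG, a sequence holding the Ets core, on either strand. The windows are chr9:44981536-44981785 on the plus strand for Cd3d, chr9:44980432-44980681 on the minus strand for Cd3g and chr9:45009612-45009861 on the minus strand for Cd3e.
Cd3d: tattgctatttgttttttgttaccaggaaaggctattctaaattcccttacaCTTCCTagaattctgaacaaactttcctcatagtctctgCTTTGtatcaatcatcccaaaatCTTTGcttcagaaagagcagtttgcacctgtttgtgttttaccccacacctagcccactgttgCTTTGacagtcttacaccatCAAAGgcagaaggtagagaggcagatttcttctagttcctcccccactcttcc
Cd3g: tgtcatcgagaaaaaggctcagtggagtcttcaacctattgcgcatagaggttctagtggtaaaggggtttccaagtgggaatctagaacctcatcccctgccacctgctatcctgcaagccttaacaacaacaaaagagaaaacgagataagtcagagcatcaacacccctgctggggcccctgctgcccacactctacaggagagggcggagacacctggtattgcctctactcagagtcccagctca
Cd3e: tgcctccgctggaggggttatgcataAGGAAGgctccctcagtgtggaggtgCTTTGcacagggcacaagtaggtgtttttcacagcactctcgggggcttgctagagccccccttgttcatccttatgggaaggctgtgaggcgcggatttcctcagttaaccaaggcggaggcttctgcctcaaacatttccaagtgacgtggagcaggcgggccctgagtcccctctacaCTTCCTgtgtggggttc
The Cd3d window held 4 matches of CTTTG and 1 of AGGAAG, the Cd3e window 1 and 2, and the Cd3g window none of either. No match of one motif overlapped a match of the other in these windows. Of 32851 windows of this length in RefSeq's table, 48.6% held CTTTG and 29.5% held AGGAAG on either strand, so both are common.

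All members of the CD3 and receptor group were high in the classes named CD8+ and CD4+. In the plot of members by class, these rows carry the large symbols. CD8+ cells numbered 622 in aged and 106 in young mice. Cd3d had a mean corrected value of 6.14 in aged and 7.22 in young CD8+ cells, Cd3g 7.93 and 7.54, and Cd3e 3.57 and 2.70. Each was above 0 in 91.5% or more of these cells. All 3 CD3 genes together were above 0 in 93.4% (95% interval 91.2 to 95.2) of aged and 91.5% (84.5 to 96.0) of young CD8+ cells. The constant regions followed the same pattern, with Trbc2 at 9.09 in aged and 10.97 in young cells and Trac at 3.45 and 3.88. Reads of Trbc2 and its near-identical copy Trbc1 may have been split by the counting, so their separate levels are uncertain. Cd247 was the lowest of the complex, at 0.78 in aged and 0.79 in young CD8+ cells, and was above 0 in 52.7% and 54.7% of them. These 3' tag counts are not corrected for gene length, so the values give an order of detection within this assay and no ratio of transcripts.

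**Figure D1:**
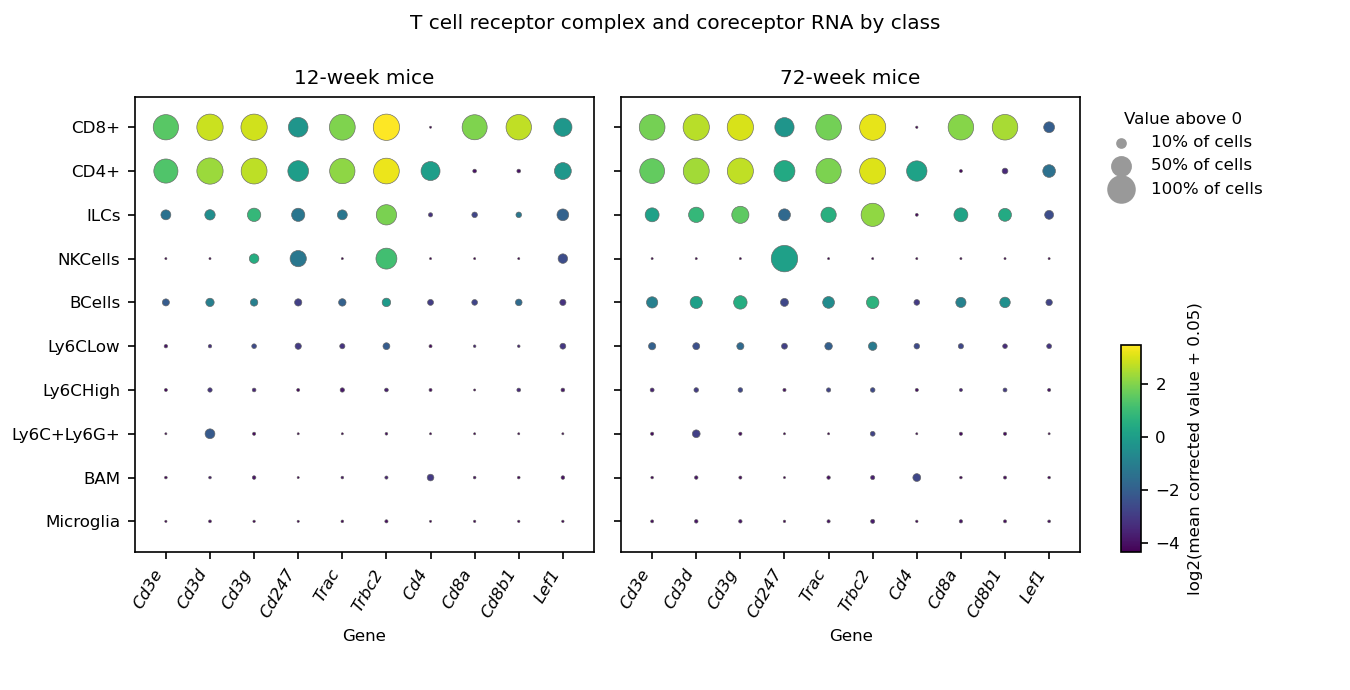
Corrected RNA values of the 10 genes (columns) in the authors' 10 classes (rows), in 12-week and 72-week mice. Symbol area shows the percentage of cells with a value above 0, and colour shows log2 of the mean corrected value plus 0.05; the CD8+ and CD4+ rows carry the large symbols, ILCs and BCells smaller ones, and Cd3d in Ly6C+Ly6G+ and Cd4 in BAM stand alone in their rows.

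The coreceptor genes separated the T cell classes cleanly in 1 direction and less so in the other. Among CD8+ cells 89.1% of the aged and 84.9% of the young had both Cd8a and Cd8b1 above 0, and 2.25% and 2.83% had neither. Of 622 aged CD8+ cells 1 had a Cd4 value above 0, and of 106 young ones 0, which by the limit of 3 cells that a count of 0 allows is a share of up to 2.83% (exact upper bound 3.42%). The CD4+ class held 142 aged and 72 young cells, and Cd4 was above 0 in 59.2% (50.6 to 67.3) of the aged and 51.4% (39.3 to 63.4) of the young ones. Every cell of that class carried CD4 tags, at least 24 in aged and 91 in young mice, with medians of 113 and 697. The authors' classes were made from RNA and tags of the same cells, so this may follow from how the class was made. In CD8+ cells the median number of CD4 tags was 0 in aged and 5.5 in young mice. The mean corrected value of Cd4 in the CD4+ class was 1.08 in aged and 0.96 in young mice, below the Cd8a values of 4.09 and 3.88 in the CD8+ class. Cd4 RNA at this depth therefore marked a part of the cells that the antibody marked.

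Of the members tested in 4 classes, Lef1 in CD8+ cells was the 1 that passed in the main test, and it was lower in CD8+ cells of aged controls than of young controls. Its mean corrected value was 1.16 and 0.59 in young control pools 1 and 3. The aged control pools lay at 0.14, 0.19 and 0.12. The groups did not overlap: 0.87 ± 0.41 (SD, n = 2) in young and 0.15 ± 0.036 (SD, n = 3) in aged controls. Young control pool 2 held 5 CD8+ cells, under the minimum of 10, and was not used; its value of 0.60 lay near that of pool 3. The log2 difference, on the log2(value + 0.05) scale used for all RNA tests, was -2.13 (SE 0.356), with a limma adjusted p of 0.0225. Of 8287 genes tested 20 were called (0.241%), and Lef1 was the 1 member called among 9 tested, 3 of which had an unadjusted p under 0.05.

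The antibiotic pools gave the same order of ages. Lef1 in CD8+ cells was 0.90, 0.40 and 0.78 in the young antibiotic pools and 0.21, 0.27 and 0.22 in the aged ones. It was above 0 in 47.2% (37.4 to 57.1) of all young and 16.4% (13.6 to 19.5) of all aged CD8+ cells. The lowest young pool, at 0.40, was above the highest aged pool, at 0.27. Median raw UMIs were 8287 in young and 6928 in aged CD8+ cells, and the part of depth in the Lef1 shares was not tested. The call rested on every aged control pool: the adjusted p of limma was 0.0898 without aged control 1, 0.0583 without aged control 2 and 0.115 without aged control 3. The call was also lost without young control 1. Without young control 1 or 3, a single young control pool was left, so that group had no spread of its own. The log2 differences were then -1.66 and -2.59. The difference stayed negative in each, between -2.59 and -1.66 over all pools left out in turn.

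Genes of naive and central memory T cells moved with Lef1 in this comparison. Of 5 such genes listed and tested, 3 fell and none rose in CD8+ cells with age, and 4 had an unadjusted p under 0.05. Their median log2 difference was -2.48, against 0.05 over all genes. Ccr7, which encodes a chemokine receptor for lymph node entry, fell by 2.93 on the log2 scale (SE 0.445, limma adjusted p 0.0152). Its mean value was 1.84 and 1.00 in the young control pools and 0.089, 0.24 and 0.11 in the aged ones. S1pr1, the receptor for lymph node exit, fell by 2.48 on the log2 scale (SE 0.433, adjusted p 0.0269), from 1.097 and 0.76 to 0.11, 0.17 and 0.099. In the 5 cells of young control 2, Ccr7 and S1pr1 were both at 0. With that pool included the log2 difference was -1.33 for Ccr7 (limma adjusted p 0.586) and -1.06 for S1pr1 (0.628), against -1.98 for Lef1 (0.0346). Leaving out aged control 1 or 3 also ended both calls, and leaving out young control 1 or 3 or aged control 2 that of S1pr1. Among 10 T lineage transcription factors tested, Lef1 fell and Tox, a factor linked to chronically stimulated CD8 T cells, rose by 1.28 on the log2 scale (SE 0.228, limma adjusted p 0.0286). Tox was 0.55 and 0.53 in the young control pools and 1.38, 1.35 and 1.4 in the aged ones. Its call was lost without young control 3 or any 1 aged pool (limma adjusted p between 0.0672 and 0.146), with log2 differences of 1.25 to 1.29.

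**Figure D2:**
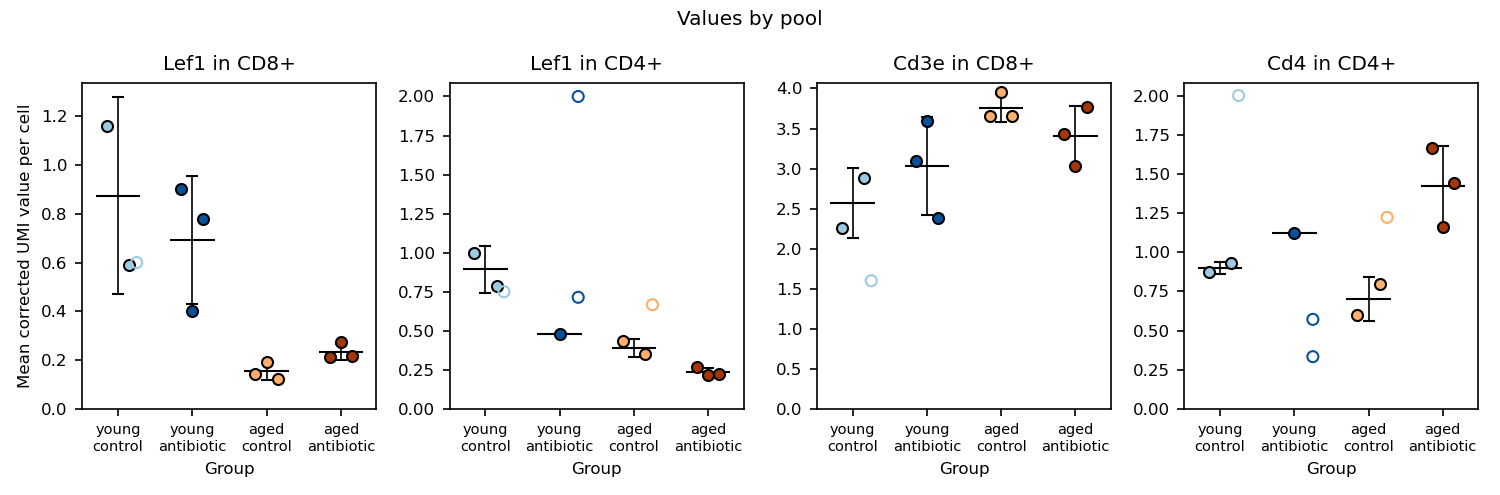
Mean corrected value per pool (points) of Lef1 in CD8+ and CD4+ cells, Cd3e in CD8+ cells and Cd4 in CD4+ cells, by group; bars are the mean and SD of pools with at least 10 cells of the class, and open points are pools with fewer. Lef1 in CD8+ cells is between 0.12 and 0.27 in the aged pools and between 0.40 and 1.16 in the young ones.

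Markers of other cell types also differed between these pools. The summed value of 6 neutrophil genes in CD8+ cells was 2.26 and 124.6 in the young control pools and 0.504 to 0.634 in the aged control pools, and none of the 6 passed the test, while all 6 had an unadjusted p under 0.05. The summed value of 8 B cell genes was 0.677 to 1.41 in young controls and 1.43 to 50.4 in aged controls, and 0 of the 4 tested passed, with 2 at an unadjusted p under 0.05. Of the 8 B cell genes, 4 were at 0 in all young and 1 in all aged CD8+ cells. The Lef1 difference was -2.59 without young control 3, a fit that left 1 young control pool. It was -2.16 with a limma adjusted p of 0.0186 in cells with CD3 RNA only. That subset kept 105 of 106 young and 617 of 622 aged CD8+ cells, so it cannot show the part of these markers. Their part in the result was not tested. Fewer cells expressing a gene and less RNA per cell cannot be told apart in a pool mean.

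In CD4+ cells Lef1 lay lower in aged pools too, but no member passed the test. The young control pools with at least 10 cells had Lef1 values of 1.00 and 0.79 and the aged ones 0.43 and 0.35. The log2 difference was -1.09 (SE 0.481), with a limma adjusted p of 0.793; 1 of 8 members tested had an unadjusted p under 0.05. Of 8241 genes 3 were called (0.0364%), with 2 pools in each of these groups. Whether the difference in CD4+ cells was smaller than in CD8+ cells was not tested.

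The genes of the receptor complex itself showed no called difference with age in CD8+ cells. Cd3e was nearest: 2.26 and 2.88 in the young control pools and 3.66, 3.96 and 3.65 in the aged ones. These groups did not overlap, and the log2 difference of 0.55 (SE 0.175) had an adjusted p of 0.227 by limma. Cd3d differed by -0.23 (SE 0.150), Cd3g by 0.25 (SE 0.196), Trac by -0.11 (SE 0.153) and Trbc2 by -0.39 (SE 0.162). Cd8a differed by 0.44 (SE 0.277) and Cd8b1 by -0.39 (SE 0.192). Cd247 had the widest error of the complex, with a difference of 0.39 (SE 0.365), which was -0.32 without young control 3. Of 24 genes of receptor partners and signalling, such as Lck, Zap70 and Lat, none passed the limma test in CD8+ cells with age and 5 had an unadjusted p under 0.05. Their median log2 difference was -0.04, against 0.05 over all genes.

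The 3 antibodies to members were not called with age either. In the edgeR quasi-likelihood test of 34 antibodies in CD8+ cells, 8 were called with age (23.5%), and CD3, CD4 and CD8a were not. The log2 differences were -0.22 (SE 0.364) for CD3, which was 0.06 without aged control 2, and 0.07 (SE 0.156) for CD8a. These are relative to the other tags of the same cells, whose totals differed between the wells. Among the antibodies called, CD335 was higher in aged controls by 8.03 on the log2 scale in CD8+ cells. In CD4+ cells, ILCs and BCells it was called too, at 6.94, 7.58 and 9.71. Age and well cannot be told apart in any of these antibody calls.

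No member passed the RNA test for antibiotics in any class tested. In CD8+ cells of young mice 12 of 8287 genes were called (0.145%) and 0 of 9 members, with 1 member, Cd8b1, at an unadjusted p under 0.05. Cd8b1 was 6.87 and 8.29 in young control pools 1 and 3 and 7.20, 5.67 and 3.94 in the antibiotic pools, and the groups overlapped. In aged mice 1 gene was called (0.0121%) and 0 of 9 members, none at an unadjusted p under 0.05. Lef1 in aged CD8+ cells was 0.14, 0.19 and 0.12 in controls and 0.21, 0.27 and 0.22 in antibiotic pools. These values did not overlap, yet limma gave the log2 difference of 0.49 (SE 0.319) an adjusted p of 1.0. The limma test of the difference between the ages called 0 of 8287 genes (0%). An unadjusted p under 0.05 was found for 713 genes, none of them among the 9 members.

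Among antibodies in CD8+ cells, 2 were called for antibiotics in young mice (5.88%) and 0 in aged mice (0%), and neither of the 2 was CD3, CD4 or CD8a. Of the 34, 4 had an unadjusted p under 0.05 in young mice and 3 in aged mice. The difference between the ages called 0 antibodies (0%), with 0 at an unadjusted p under 0.05. DESeq2 called none of the 3 in CD8+ cells in any comparison.

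Among the members in the CD4+ class, Cd4 lay apart between the aged arms without being called. It was 0.60 and 0.80 in aged control pools 2 and 3 and 1.67, 1.16 and 1.44 in the antibiotic pools, which did not overlap. The log2 difference was 0.97 (SE 0.332), with a limma adjusted p of 1.0, where 1 of 8241 genes was called (0.0121%). Aged control 1, with 9 cells, had a value of 1.22 and would have overlapped. CD4 tags differed by -0.36 (SE 0.303) in the same cells, where edgeR called 0 of 34 antibodies (0%) and 2 had an unadjusted p under 0.05. In CD4+ cells with age 1 antibody was called (2.94%), which was none of CD3, CD4 and CD8a. In young mice 1 antibiotic pool had at least 10 CD4+ cells, and antibiotics were not tested in that class there.

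A gamma chain gene changed in the CD8+ class, where the delta chain gene was rare. Tcrg-C2 is a constant region of the gamma chain. Its mean values were 0.097 and 0.059 in young controls, 0.50, 1.07 and 0.28 in young antibiotic pools, and 1.23, 0.87 and 1.42 in aged controls. The young control pools were below every other pool. It rose with age in control CD8+ cells by 3.25 on the log2 scale (SE 0.396, limma adjusted p 0.00572), the lowest adjusted p of that comparison. It also rose with antibiotics in young mice, by 2.21 (SE 0.396, limma adjusted p 0.0410). The first call was lost without aged control 1 (adjusted p 0.0704). The second was lost without young control 3 (adjusted p 0.130) or without any 1 of the 6 aged pools (0.0638 to 0.0941), and the log2 differences stayed between 2.00 and 2.21 there. It was also lost with weights by cell number (0.348), logs per cell (0.110), a pseudocount of 0.5 (0.108), at least 5 cells per pool (0.0559) and no filter (0.0545). Trgv2, a gamma variable gene, rose with age by 2.82 (SE 0.405, adjusted p 0.0131), a call lost without young control 3, aged control 1 or aged control 3. Among CD8+ cells 44.5% of the aged and 16.0% of the young had a Tcrg-C2 value above 0, and 1.61% and 2.83% had one for Trdc, the delta constant region. Trdc without Trac was found in 1 of 622 aged and 1 of 106 young cells. Among the 4 genes of the gamma-delta list tested with age, which does not hold Trgv2, Tcrg-C2 was the 1 called. Reads shared with the similar genes Tcrg-C1 and Tcrg-C4 make its own level uncertain.

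A total of 1102 cells had CD3 RNA, defined as at least 2 of Cd3e, Cd3d and Cd3g above 0. Of these, 929 were in the T cell classes (722 CD8+, 207 CD4+), 78 were ILCs (innate lymphoid cells, which lack an antigen receptor), 66 were BCells and 29 were in other classes. In microglia, which should lack these genes, 2 of 4359 aged and 0 of 5044 young cells met the definition. Single CD3 genes were above 0 in 0.1% to 1.2% of microglia, at median raw UMIs of 7118 and 6809, which is the background level. The plot of cells with CD3 RNA by pool shows how unevenly the cells outside the T cell classes were spread.

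**Figure D3:**
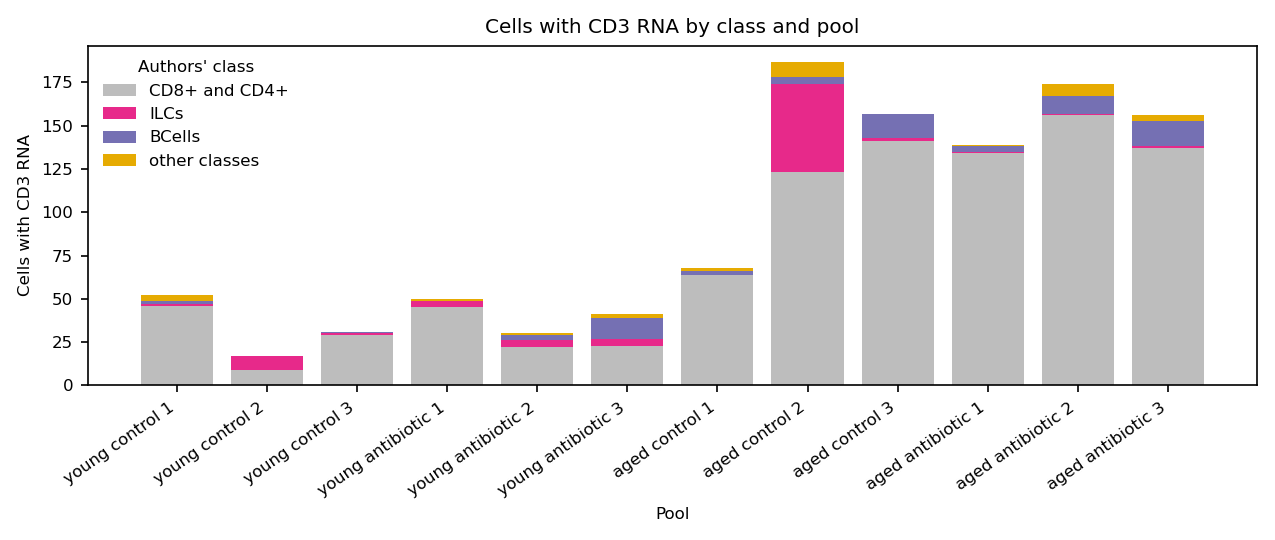
Number of cells with CD3 RNA in each of the 12 pools, stacked by the authors' class. Aged control 2 has 51 such cells among ILCs, and no other pool has more than 8.

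The border between the T cell classes and ILCs coincided with a number of CD3 tags. In aged mice the ILC with most CD3 tags had 4 and the T cell with fewest had 5. In young mice these numbers were 43 and 45. No cell crossed the border in either well. It was shared by pools whose CD3 tags differed: CD8+ cells of aged control 2 had a median of 9 CD3 tags, against 17 to 24.5 in the other aged pools. In that pool 50.4% of T cells lay under double the border, against 1.54% to 11.3% in the other aged pools. Its CD8+ cells carried a median of 96 CD8a tags (100 to 121 in the others) and 230 CD45 tags (207.5 to 246), so the low value was of CD3 and not of all tags. Their median raw UMIs, 6892, were within the range of the other aged pools, 6374 to 7557.

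Of the 56 aged ILCs with CD3 RNA, 51 came from aged control 2, where they made up 51 of 87 ILCs. Of these 51 cells, 41 also had Cd8a RNA, and 42 had at least as many CD8a tags as the lowest CD8+ cell of the well. Their median number of CD8a tags was 72, against 1 in the other 36 ILCs of the pool. Trac was above 0 in 98.0% of them and in 8.3% of the others, Cd8b1 in 74.5% and 2.8%, Il1rl1 (the IL-33 receptor of group 2 ILCs) in 2.0% and 44.4%, and Ncr1 (a receptor of NK cells and group 1 ILCs) in 2.0% and 36.1%. These ILCs held the Trac, Cd8a and Cd8b1 RNA and the CD8a protein seen in the CD8+ class, and little Il1rl1 or Ncr1. Tags of the NK cell antibody NK1.1 were not lower in them, with medians of 14 against 12 in the other 36 ILCs of the pool. Il1rl1 is 1 of 8 group 2 ILC genes listed and Ncr1 is 1 of 8 NK genes. Of these lists, 1 and 4 genes were above 0 in 20% or more of aged CD8+ cells. The rest of both lists is not compared here. As listed, ILCs were 8.30% of the cells of that pool and 0.361% to 2.62% of the other aged pools. Without those that had CD3 RNA they were 3.44% of that pool and 0.289% to 2.52% of the other aged pools. CD8+ cells were 8.87% of the pool as listed and 12.8% with the 41 cells that had both CD3 and Cd8a RNA.

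**Figure D4:**
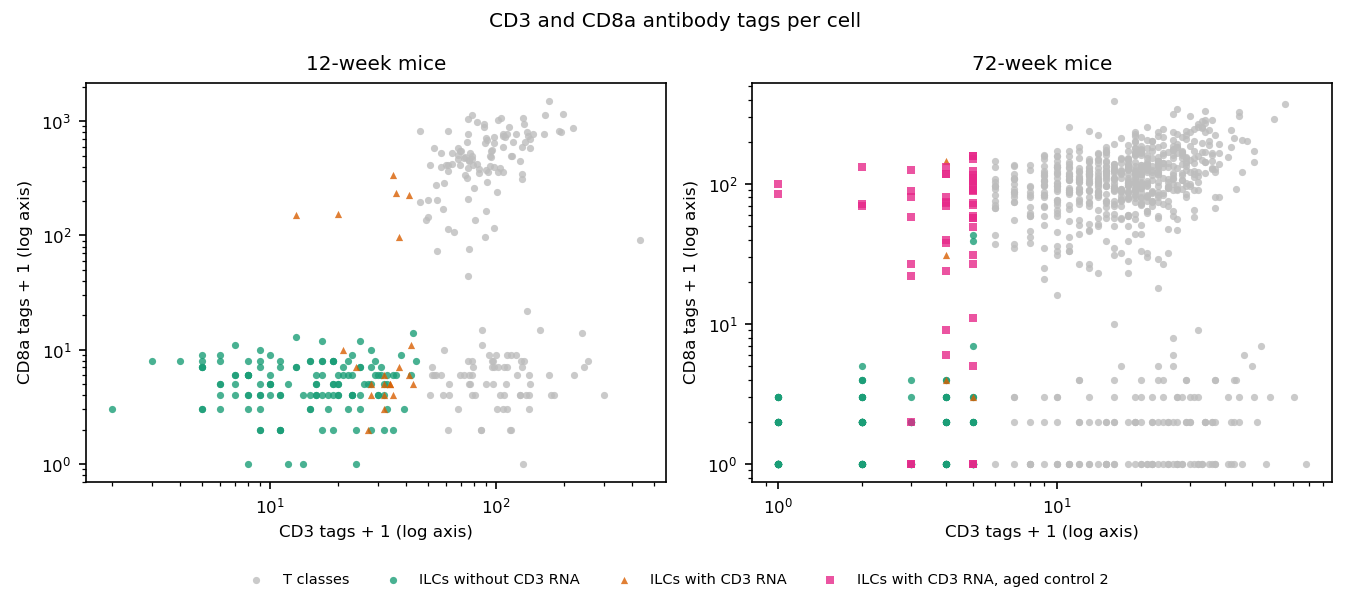
CD3 tags against CD8a tags per cell (each plus 1, log axes) in 12-week and 72-week mice, for cells of the T cell classes and for ILCs with and without CD3 RNA. In aged mice the ILCs with CD3 RNA from aged control 2 (squares) sit at the CD8a level of the CD8+ cells but at 4 or fewer CD3 tags.

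The young ILCs with CD3 RNA were fewer and less alike. They numbered 22 of 155, with 8 in young control 2 and 1 to 4 in each other young pool. Cd8a was above 0 in 27.3% of them, Cd4 in 13.6%, Trac in 72.7% and Trdc in 22.7%, against 0.0%, 0.0%, 3.8% and 10.5% of the young ILCs without CD3 RNA. Their median CD3 tags were 32, between the 15 of those other ILCs and the 87 of CD8+ cells. Being under the CD8+ value follows from the class border, since all of them had at most 43 CD3 tags. Ncr1 was above 0 in 4.5% of them and 82.0% of the rest.

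Some members were present in ILCs that had no CD3 RNA. Among ILCs without CD3 RNA, 68.9% of the aged and 53.4% of the young had a Trbc2 value above 0. Cd247, which also serves NK receptors, was above 0 in 9.2% and 20.3%, and Cd3g in 14.3% and 12.8%. Cd3e in the same cells was at 0.8% in both wells and Trac at 5.0% and 3.8%. Of 8 young cells in the class NKCells, 62.5% had Trbc2 and none had Trac. The share of Trbc2 in microglia was 1.8% in aged and 0.9% in young mice, so its level in ILCs was above that background. Group membership by CD3 RNA used Cd3e, Cd3d and Cd3g, so low shares of these genes in cells without it follow from the definition.

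In the main tests no member was called in ILCs. With age 76 of 8335 genes were called (0.912%) and 0 of 9 members, none at an unadjusted p under 0.05. For antibiotics 5 genes were called in young mice (0.06%) and 7 in aged mice (0.084%), again with 0 of 9 members and with 0 and 1 members at an unadjusted p under 0.05. The difference between the ages called 4 genes (0.048%) and 0 of 9 members, with 1 at an unadjusted p under 0.05. That member and the 1 in aged mice were both Trac. Its values in aged control pools were 0.091, 2.70 and 0.42, and in the 2 aged antibiotic pools with at least 10 ILCs 0.00 and 0.32, so aged control 2 set the group's mean. The log2 difference of Trac between aged arms was -2.06 (SE 0.876, limma adjusted p 0.673), and -0.92 (SE 0.782, adjusted p 0.813) without that pool. With age, Trac in ILCs differed by 1.08 (SE 0.783), and by -0.06 (SE 0.714) without it. Weighting pools by cell number, which gives aged control 2 the most weight, made it 2.48 with an adjusted p of 0.0448. Cd3e was at -0.58 (SE 0.908) with and -2.25 (SE 0.694, adjusted p 0.132) without it, and at 0.22, 0.43 and 0.07 without young control 2, aged control 1 or aged control 3. Among the other genes of the pathway, Txk, a Tec family kinase, fell in ILCs with age by 1.30 on the log2 scale (SE 0.211, adjusted p 0.00172) and was the 1 called of 23 receptor partners tested, with 6 at an unadjusted p under 0.05. Gata3, a factor of T cells and group 2 ILCs, rose by 1.55 (SE 0.341, adjusted p 0.0274) and was the 1 called of 10 lineage factors. Its call was lost without young control 1 or 2 or aged control 1 or 3 (adjusted p 0.0970 to 0.150), with at least 20 (0.222) or at least 5 (0.103) cells per pool, with no filter (0.0678) and in cells with at least 2000 raw UMIs (0.0509). Of 8 NK genes 6 fell with age in ILCs and of 6 group 2 ILC genes tested 2 rose. Their part in these differences was not tested.

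CD8a tags in ILCs followed the same pool. With age they differed by 3.42 on the log2 scale (SE 1.19, edgeR adjusted p 0.0856), where 3 of 34 antibodies were called (8.82%), and DESeq2 called CD8a with an adjusted p of 0.0193. Without aged control 2 the difference was 0.91 (SE 0.825, adjusted p 0.591). For antibiotics 1 antibody was called in young ILCs (2.94%) and 0 in aged ILCs (0%), none of the 3, with 3 antibodies at an unadjusted p under 0.05 in aged mice. The difference between the ages called 0 (0%), with 6 at an unadjusted p under 0.05. CD4 tags in young ILCs differed by 2.17 (SE 0.769, adjusted p 0.127) between arms and were called without aged control 2 (adjusted p 0.0185).

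In BCells, 66 of 487 cells had CD3 RNA, 48 of 243 aged and 18 of 244 young. Of the 66, 45 had RNA of Cd79a, a subunit of the B cell receptor, 41 had Cd8a and 11 had Cd4. In aged mice Cd79a was above 0 in 77.1% of those with CD3 RNA and 67.2% of those without, and in young mice in 44.4% and 84.5%. Trac was above 0 in 95.8% and 0.5% of the aged and in 88.9% and 0.9% of the young ones. Median raw UMIs were 10800 with and 4598 without CD3 RNA in aged mice, and 11990 and 4467 in young mice. The CD8+ class had a median of 7097. CD3 tags had medians of 23 and 3 in aged and 92.5 and 9 in young mice, whereas B220 tags, from a B cell form of CD45, had medians of 8 and 9, and 35.5 and 40. BCells with CD3 RNA had a median of 11938 raw UMIs where Cd79a was above 0 and 7815 where it was not. The authors' calls list all cells as singlets, and whether a droplet held 2 cells was not tested.

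Members in BCells varied between pools, and none was called in the main test. The part of the cells with CD3 RNA in this was not tested. Trac was 0.20, 0.38 and 1.04 in aged controls and 0.063, 0.043 and 0.13 in young controls, without overlap. Limma gave the log2 difference of 2.00 (SE 0.550) an adjusted p of 0.187. Of 8383 genes 5 were called with age (0.0596%) and 0 of 10 members, while 5 members had an unadjusted p under 0.05. Antibiotics called 0 genes in young mice (0%), in aged mice (0%) and for their difference (0%) by limma. The genes whose unadjusted p was under 0.05 numbered 453, 230 and 328, and 4, 0 and 0 of them were members. Cd3g with age was called without young control 1 (log2 difference 3.16, adjusted p 0.0402). Of 34 antibodies in BCells 1 was called with age (2.94%), not 1 of the 3, and 0 for antibiotics in young mice (0%), in aged mice (0%) or for their difference (0%), with 1 antibody at an unadjusted p under 0.05 in each.

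The share of all cells with CD3 RNA, whatever their class, lay higher in each aged control pool than in each young one. It was 4.03%, 2.24% and 2.56% in young controls and 7.67%, 17.8% and 11.8% in aged controls, without overlap. The difference was 9.50 percentage points, with an exact two-sided permutation p of 0.1, the smallest that 3 pools against 3 allow, and 0.8 after adjustment over 8 tests. For antibiotics the share was 6.43%, 3.35% and 2.58% in young and 15.04%, 12.6% and 16.4% in aged pools, and both arms overlapped. The exact permutation p over both ages was 0.33 (adjusted 0.865), for a mean difference of 1.69 points. Without aged control 2 this difference was 3.04 points with an exact permutation p of 0.06. The share among ILCs showed no such order, at 21.7% ± 32.1 (SD, n = 3) in aged and 12.8% ± 16.7 (SD, n = 3) in young controls, with an exact permutation p of 0.7. Without aged control 2 it was 3.23% in aged controls.

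Outside the lymphoid classes 2 members appeared alone. Cd4 was above 0 in 8.27% (5.26 to 12.3) of 266 aged and 5.83% (3.23 to 9.59) of 240 young BAM (border-associated macrophages), against 0.252% and 0.0397% of microglia. Of these 36 cells, 3 had another member. They also carried more CD4 protein: the median number of CD4 tags was 7 against 0 in aged BAM without Cd4 RNA, and 32.5 against 5 in young ones. These cells were also deeper, with median raw UMIs of 9887 against 7199 in aged and 8224 against 7739 in young mice, and the part of depth in the result was not tested. Median CD4 tags were higher with Cd4 RNA in 11 of the 11 pools with such cells, and young control 2 had none. Aged control 1 and aged antibiotic 2 had 1 such cell each, the latter at 1 tag against 0. Depth was not compared by pool. In the pool with most, aged antibiotic 3, the medians were 3 and 0 over 7 and 43 cells. In the CD4+ class the corresponding medians were 113 and 697, so the tags on BAM were far fewer than on CD4 T cells. This comparison was chosen after the values were seen.

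Cd3d was above 0 in 13.3% (9.26 to 18.2) of 241 young and 8.11% (3.77 to 14.8) of 111 aged Ly6C+Ly6G+ cells, whose high S100a8 is that of neutrophils. Of these cells, 1 of 32 young and 0 of 9 aged had another member, whereas in CD8+ cells Cd3d came with the other CD3 genes. No value above 3 was seen. Unlike Cd4 in BAM, this RNA came with no added tags of the matching antibody. CD3 tags were lower in the cells with Cd3d in 7 of 10 pools, equal in 3 and higher in none. Young control 2, aged control 3, aged antibiotic 1 and aged antibiotic 2 had 1 such cell each. The CD3 chains sit in the membrane together, and the other CD3 genes were at 0 in nearly all these cells. The tags therefore cannot show whether the Cd3d product was made. Cd3d in microglia was at 0.6% in young and 1.2% in aged mice. The depth of the cells did differ, with median raw UMIs of 11080 with and 9740 without Cd3d RNA in young mice, and its part in the result was not tested.

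**Figure D5:**
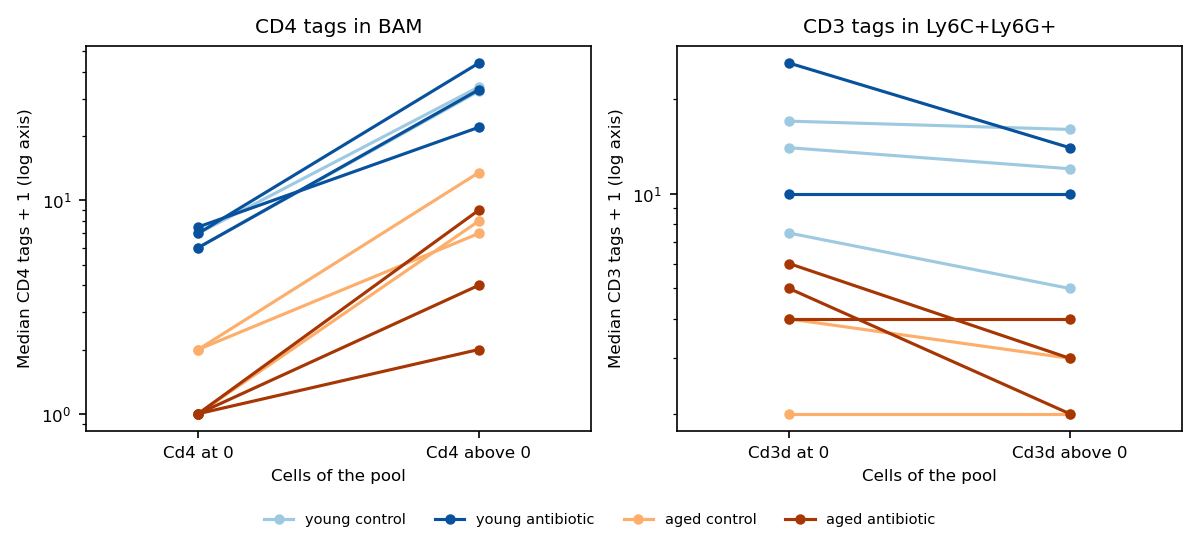
Median tags plus 1 (log axes) in cells without (left) and with (right) the RNA, 1 line per pool, for Cd4 with CD4 tags in BAM and Cd3d with CD3 tags in Ly6C+Ly6G+ cells. All 11 lines rise for CD4, and none of 10 rises for CD3.

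Cells with CD3 RNA in the class Ly6CLow numbered 15 aged and 3 young. Their median CD4 tags were 50 and 238, against 0 and 4 in the other cells of the class. Of the aged ones 7 came from aged control 2, with a median of 71 CD4 tags and 1953 raw UMIs. The other 8 had a median of 0.5 CD4 tags and 12994 raw UMIs, so the aged median was set by aged control 2.

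The genes whose pattern over 18 class-by-well means was nearest to the summed CD3 genes were Lat (Pearson r 0.98), Trbc1 (0.97), Gimap7 (0.97), Lck (0.97) and Plcxd2 (0.97), among 11401 genes. For Cd8a they were Trpc1 (0.90), Crtam (0.90), Adgrg5 (0.89), Snai3 (0.87) and Gm19261 (0.86). For Cd4 they were Cd40lg (0.90), Ncmap (0.89), Tnfrsf4 (0.87), Atcay (0.85) and Morc1 (0.85). The points share wells and depths, so these values are a description. Lat and Lck encode signalling partners of the receptor.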

How the data were processed

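CITE-seq libraries from 2 wells held 12 hashtagged pools. Per the submitters' processing notes, Cell Ranger 3.0.2, Seurat 3.0.1 and the mm10 build were used. How cells were filtered is not given in the sources used here. The RNA table deposited by the authors holds corrected UMI values of SCTransform, treated here as a score. They are whole numbers, but in 62 of 13052 cells only do they sum to the raw total, so no count model was used. The antibody table deposited by the authors holds raw tag counts for 34 antibodies. Raw UMI totals, classes and hashtag calls are the authors', from the deposited metadata, of which 34 columns were not used. No doublet caller was run.

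The pool was the replicate, used if it had at least 10 cells of a class, with at least 2 pools per group. Fits with 1 pool left out could leave 1 pool in a group, and the spread then came from the other groups alone. Pools mix mice, and p-values measure the spread between pools. RNA means per pool were tested on log2(value + 0.05) with limma 3.58.1 (trended prior variance, mean of at least 0.05, Benjamini-Hochberg over all genes, threshold 0.05). Tags summed per pool were tested in edgeR 4.0.16 (quasi-likelihood, TMM factors), with DESeq2 1.42.0 as an alternative. All groups of a class entered 1 fit, and the steps were tested on simulated data. Differences between classes are descriptions, since classes were made from the same cells. Named were all 10 members, up to 4 called genes of each list, and 5 genes nearest in pattern; of 24 receptor partners and 10 lineage factors counts are given, and the lists of other cell types were read beside them. Tcrg-C2, Trgv2, Ccr7, S1pr1 and the 2 single genes outside lymphoid classes were named after their values were seen. RefSeq (GRCm38.p6) gave positions of 10 and promoters of 6 members; start positions are 1-based. Members and lists were chosen with earlier results of these data known. A result on 1 further listed gene is not reported here.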

Additional observations from a re-analysis of the deposited data

Results flagged for a closer look

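The antibiotic effect in ILCs differed between the ages for 4 of 8335 genes in the interaction term of limma, none of them a member. As aged minus young effects on the log2 scale, these were 2.05 for Nfkb1, 5.27 for Stmn1, -6.77 for H2-Aa and -6.81 for Cd74. H2-Aa and Cd74 encode parts of MHC class II antigen presentation. The aged antibiotic group entered with 2 pools, since aged antibiotic 2 held 5 ILCs. In aged control 2, 51 of 87 ILCs had CD3 RNA. The summed B cell genes were 6.78 in its ILCs, against 2.18 and 1.68 in those of aged control 1 and 3. What such cells add to these 4 differences was not tested. Leaving out pools in turn changed the number of genes called, and the values of these 4 genes in those fits are not given.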

How the results depend on the processing

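No paired analysis was possible because a pool's number ties it to no pool of another group. Age and well, and arm and hashtag, cannot be told apart, tags are fewer in the aged well, and 5 to 31 CD8+ cells per young pool limit every young value. The Lef1 difference in CD8+ cells with age stayed negative under each alternative that gave a value; with at least 20 cells per pool it could not be fitted. Alternatives with at least 5 cells per pool, and the one restricting ILCs by CD8a tags, were chosen after seeing the data. The cause of each change below was not tested.

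Counts of all genes called moved as follows. In CD8+ cells with age (20) 12 were called with at least 5 cells per pool. For antibiotics in young CD8+ cells (12) it was 0 with at least 5 cells, 19 with a filter of 0.2 or no filter, 29 with logs per cell and 1 with weights by cell number. In aged CD8+ cells (1) it was 10 with at least 20 cells, 0 with at least 5 cells or no filter, 3 with logs per cell, 2 with a pseudocount of 0.5 and 16 with weights. The difference between ages (0) had 1 with logs per cell or no filter. In CD4+ cells with age (3) it was 0 with at least 5 cells, logs per cell or no filter and 1 with a pseudocount of 0.5, and for antibiotics (1) 0 with the first 3 of these. In ILCs with age (76) it was 34 with at least 20 cells, 19 with at least 5, 42 with no filter and 167 with weights, where 1 member, Trac, was called. In young ILCs (5) it was 0 with at least 5 cells, at least 2000 raw UMIs, a filter of 0.2, logs per cell, no filter or a pseudocount of 0.5, and 9 with weights. In aged ILCs (7) it was 3 with at least 5 cells, 2 with a filter of 0.2 or none, 0 with logs per cell and 11 with weights. Their difference (4) had 2 with at least 5 cells, 0 with a filter of 0.2, logs per cell or no filter, and 8 with weights. In BCells with age (5) it was 14 with at least 2000 raw UMIs, 3 in cells without CD3 RNA and 0 with no filter. Of antibodies, DESeq2 called 5 in BCells (1) and 6 in ILCs (3) with age, the latter with 1 member, CD8a. With at least 10 tags 1 was called in ILCs with age and 0 for antibiotics in young ILCs (1), where no composition factor also gave 0, as it did for antibiotics in young CD8+ cells (2).

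With 1 pool left out in turn, genes called ranged from 0 to 176 in CD8+ cells with age (members 0 to 1), 2 to 422 for antibiotics in young, 0 to 6 in aged mice and 0 to 57 for the difference. They ranged from 0 to 7 in CD4+ cells with age and 0 to 1 for antibiotics. In ILCs they ranged from 29 to 98 with age, 0 to 8 and 2 to 14 for antibiotics in young and aged mice, and 1 to 7 for the difference. In BCells with age the range was 0 to 13 (members 0 to 1). Antibodies called ranged in CD8+ cells from 1 to 8 with age and 0 to 1 for antibiotics in young mice, in CD4+ cells from 0 to 6, in BCells from 0 to 3, and in ILCs from 1 to 4 with age, 0 to 3 (members 0 to 1) and 0 to 1 for antibiotics, and 0 to 1 for the difference. The share of ILCs with CD3 RNA differed by -9.52 to 19.8 points with age, 1.70 to 16.1 for antibiotics in young, -27.4 to 1.90 in aged mice and -10.5 to 4.20 over both, with the sign changed without aged control 2 in all but young mice; among ILCs below the CD8a tags of CD8+ cells the age difference was -2.83. The share of all cells differed by 6.80 to 11.9 with age, 0.0245 to 1.95 and -0.177 to 4.91 for antibiotics in young and aged mice, and 0.5005 to 3.04 over both.

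Values that were not called also changed sign. Cd3d in CD8+ cells with age was 0.012 with at least 5 cells per pool. Cd3e in ILCs with age was 0.10 with a pseudocount of 0.5, 0.13 with logs per cell, 1.31 with weights and 0.43 with at least 20 cells per pool, and ranged from -2.25 to 0.43 with 1 pool left out. Cd247 in CD8+ cells ranged from -0.32 (without young control 3) to 1.103 with 1 pool left out. Trac in ILCs with age ranged likewise from -0.060 (without aged control 2) to 2.08. CD3 tags in CD8+ cells with age were 0.012 by DESeq2 and ranged from -0.57 to 0.062 (without aged control 2), and CD4 tags in CD4+ cells for antibiotics in aged mice 0.017 with no composition factor.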
